A study of Mus musculus with 8 samples.

Results

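A set of 40 cell cycle genes was followed between the limbus and the cornea of the mouse eye. They were chosen by name as genes of the G1 to S transition, DNA replication and mitosis and were found by their symbols in the deposited table, where all 40 of 40 had a row among 23420 named genes. The tissues came from 8-week-old wild type C57BL/6J mice, with no treatment named for either tissue. The limbal rim, the band where the cornea meets the sclera, was separated under a microscope from the corneal button inside it, and the pieces of several eyes were pooled by tissue, so that no value belongs to 1 animal. Total RNA was sequenced from stranded libraries. GEO's labels number 4 samples per tissue, but the table holds no value per sample and its means rest on a single cornea library and a single limbus library.

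The cell cycle is driven by cyclins, which bind and switch on cyclin-dependent kinases. D-type cyclins act in G1, E-type cyclins at the entry to S phase, and the A- and B-type cyclins from S phase to mitosis. The retinoblastoma protein holds back E2F transcription factors until it is phosphorylated, after which genes for DNA replication are transcribed, and a later wave of mitotic genes follows under B-MYB and FOXM1. In the ocular surface, the limbus is known as the home of slowly cycling stem cells of the corneal epithelium, and the basal layer of the corneal epithelium holds dividing progeny of these cells.

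The reads of each gene in the cornea and limbus libraries were worked back from the deposited means and are derived values. For each of the 40 genes the mean allowed from 2 to 155 pairs of read numbers, and the pair used is the one that met the deposited fold change and standard error, so all reads and ratios of these genes depend on those columns. Reads on named genes numbered 26104317 (cornea library) and 21182025 (limbus library). Ratios are given as limbus over cornea on the log2 scale, after division by a size factor (cornea 1.03, limbus 0.967), with 95% confidence intervals (CI) that turn exact Clopper-Pearson bounds of the reads coming from the limbus into ratios. The intervals cover only the error of counting reads and no spread between libraries. Amplified reads that carry no molecular identifier need not be independent molecules, so the intervals can be too narrow even for counting error. As each tissue has 1 library, the differences lack a replicate check and no p-value is given. A gene is counted as higher in a tissue where its ratio is at least 1.5-fold and its interval excludes no difference. In bulk tissue, fewer cells of a type and less RNA per cell cannot be told apart.

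The cornea library held the higher level of most of the 40 genes, by small amounts, and 2 of the D-type cyclins went the other way. The normalised reads of the 40 genes summed to 50070 in the cornea against 38763 in the limbus. Ccnd1 alone gave 10801 and 5518 of these, and without the D-type cyclins the sums were 37048 and 29682. By side, 29 genes (72.5%) lay on the cornea side against 11 on the limbus side. Of all genes whose mean was 50 or more, 56.7% lay on the cornea side. The median log2 ratio was -0.34, beside -0.10 over the 11882 genes with a deposited mean of 50 or more, which every one of the 40 genes exceeded. The ratios spread from -1.52 for Ccne2 to 0.95 for Mybl2, with quartiles at -0.57 and 0.11. The quartiles of the 11882 genes were -0.52 and 0.33.

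At least 1.5-fold higher in the cornea were 9 of the 40 genes (22.5%), namely Ccnd1, Ccne2, Mcm4, Rrm2, Ccna2, Bub1, Mad2l1, Cenpe and Cenpf. The same call was made for 18.6% of all 15572 genes tested and for 22.1% of genes whose mean was 50 or more, so the share of the cell cycle genes lay near the background. At least 1.5-fold higher in the limbus were 3 of the 40 genes (7.5%), Ccnd2, Ccnd3 and Mybl2, against 22.2% of all genes tested and 17.4% of those with a mean of at least 50. The other 28 genes met neither call. With the interval alone and no minimum fold, 24 of the 40 genes (60%) were higher in the cornea, where the background was 36.5% of all genes tested and 45.5% of those with a mean of at least 50. By the same count 4 genes (10%) were higher in the limbus, the fourth being Cdc20, against 34% and 33% in the background. These counts were 13 and 10 after the adjustment for base composition described below, where no background was worked out for them.

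**Figure D1:**
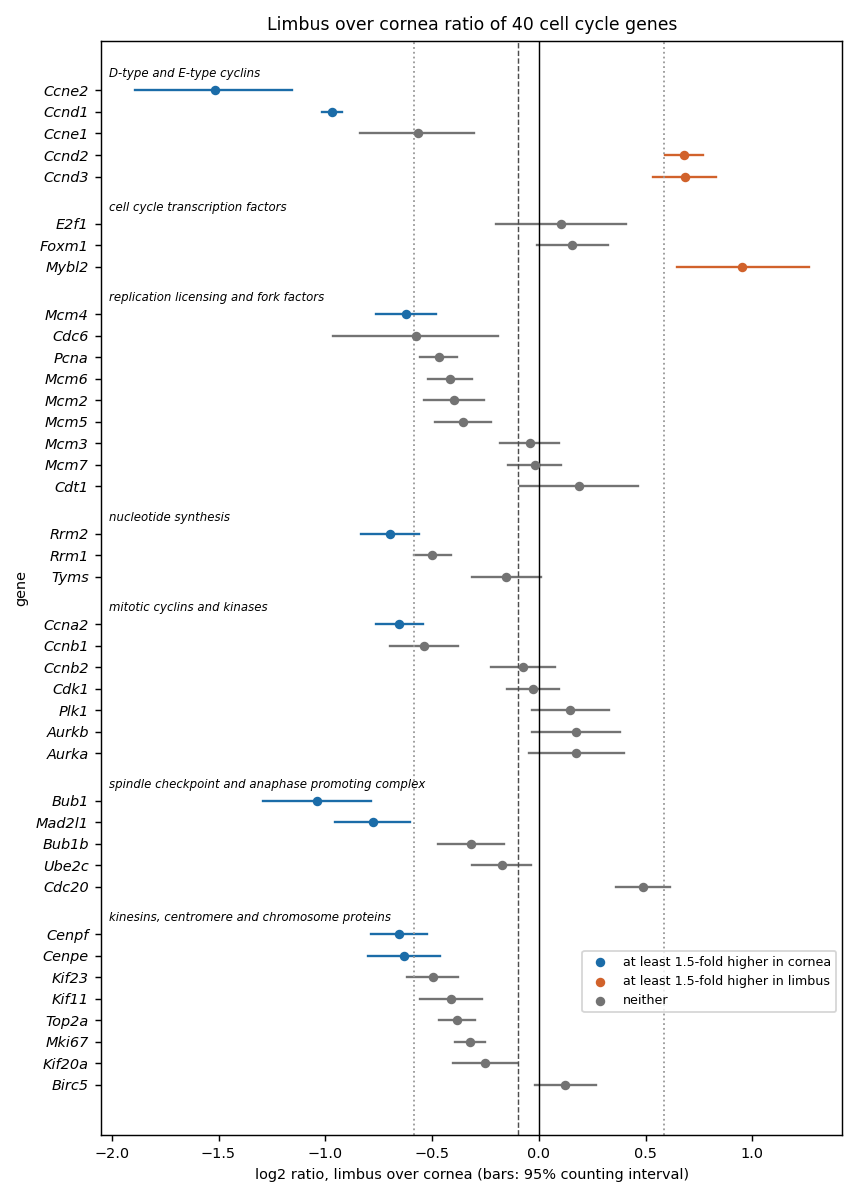
Log2 ratio of limbus over cornea (horizontal axis) of each of the 40 genes (vertical axis), ordered by role, with bars for the 95% counting interval. Dotted lines mark 1.5-fold, the solid line no difference and the dashed line the median of -0.10 of genes with a mean of at least 50. Most points lie left of the solid line, and Ccnd2, Ccnd3 and Mybl2 lie beyond the right dotted line.

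Libraries are scaled to each other by a choice that bears on all 40 genes at once. With scaling to the total reads every log2 ratio moved up by 0.21, the genes on the cornea side fell from 29 to 23, and 3 genes were at least 1.5-fold higher in the cornea against 4 in the limbus. On the cornea side were then 57.5% of the 40 genes, 38.4% of all genes tested and 43.4% of genes whose mean was 50 or more. By the interval alone, 20 genes were higher in the cornea and 14 in the limbus. The share of all genes by that count was not worked out under this scaling, so these 2 numbers have no background. The calls at 1.5-fold were then made for 12.1% and 27.5% of all genes tested, and the limbus took 69.3% of the calls in place of 54.3%. Directions of genes within 0.21 below 0 (Mcm3, Mcm7, Tyms, Cdk1, Ccnb2 and Ube2c) turn to the limbus side under this scaling. The calls of Mcm4, Rrm2, Ccna2, Mad2l1, Cenpe and Cenpf end under it, at -0.42, -0.49, -0.45, -0.57, -0.43 and -0.45, and Cdc20 at 0.69 is added on the limbus side. Differences between 2 genes of the set do not depend on the scaling, but they can depend on base composition. A further alternative, added after the data were seen and called the composition adjustment here, subtracted from each ratio the median of genes of like GC content and transcript length whose mean was 50 or more, and its values stand beside the results it turns or ends.

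The cell types in both libraries were checked by marker lists. Krt5, the keratin of basal epithelial cells, had 614126 cornea reads and 433918 limbus reads, a log2 ratio of -0.41. The 7 basal epithelial markers together summed to 693060 normalised cornea reads and 546264 normalised limbus reads, a log2 ratio of the sums of -0.34. Beside it stand -0.37 for the sums of the 40 cell cycle genes and -0.32 for these without the D-type cyclins. This marker sum rests on Krt5, and without it, a sum added after the data were seen, the other 6 markers had 98981 and 97703 normalised reads, a log2 ratio of -0.02. Of these 7 markers 6 lay on the cornea side, and the exception was Krt14 with a log2 ratio of 2.52. All 6 markers of the differentiated corneal epithelium lay on the cornea side with a median of -1.42. All 8 markers of vascular endothelium, 6 of melanocytes, 6 of skeletal muscle and 6 of Schwann cells lay on the limbus side, with medians of 6.43, 2.77, 7.92 and 1.96. All 8 leukocyte markers with reads were on the limbus side as well, with a median of 1.77. Of 8 markers of limbal and conjunctival epithelium, 7 had more than 3 reads in at least 1 library, and these 7 lay on the limbus side with a median of 3.47. The part of this cell mixture in the ratios of the cell cycle genes was not tested.

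Promoters are where the waves of cell cycle transcription are set, and short sequence words mark them. Both strands were searched. The cell cycle homology region (CHR), which the MuvB complex binds, was searched as TTTGAA and, in its other form, as TTTAAA, which reads the same on both strands. The box of the factor NF-Y was searched as CCAAT. The words searched for E2F factors were TTCCCGC, further the word TTGGCGC, further the word TTCGCGC and, last, the word TTGCCGC. On opposite strands these E2F words can overlap. A RefSeq promoter (GRCm38.p6, 250 bases before to 50 after the gene start) was found for 32 of the 40 genes. Missing were Ccnd1, Ccnd2, Ccne2, Foxm1, Mcm4, Ccna2, Aurkb and Kif20a.

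Of the 17 mitotic genes with a promoter, 15 held a CHR word and 15 a CCAAT word, and 14 held both. Both words together stand in 10.7% of all 32851 promoters and in 7.51% of the 11395 promoters of genes with a mean of at least 50. CHR alone stands in 27.6% and 19.2% of them, and CCAAT in 37.4% and 37.6%. Bub1 and Mad2l1 were the mitotic genes without a CHR word. Of the 15 genes of G1 and S phase, 4 held a CHR word, 9 CCAAT and 8 an E2F word, and 6 of these 8 were replication licensing and fork genes. An E2F word stands in 9.57% of all promoters and 16.7% of those with a mean of at least 50, and in 3 of the 17 mitotic genes. The median log2 ratio was -0.36 for the 19 genes with a CHR word and -0.15 for the 13 without, an order that the composition adjustment turned, with medians of -0.02 and -0.09. A match is a description of the letters in the window and not a site.

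The 250 bases before the start are shown for the 2 genes with the most reads and a RefSeq promoter in each of 3 role groups, to set the word content of a mitotic promoter beside that of a replication gene and of a G1 cyclin. Capitals mark the words above as read on either strand, so that ATTGG stands for CCAAT on the other strand, and CHR words on the other strand read TTCAAA.
Cdk1, chr10:69352913-69353162, minus strand: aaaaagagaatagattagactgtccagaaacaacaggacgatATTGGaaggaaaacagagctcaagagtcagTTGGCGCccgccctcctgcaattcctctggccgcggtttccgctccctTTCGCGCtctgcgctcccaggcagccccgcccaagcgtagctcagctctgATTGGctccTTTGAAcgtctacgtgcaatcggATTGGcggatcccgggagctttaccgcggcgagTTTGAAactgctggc
Ccnb2, chr9:70421555-70421804, minus strand: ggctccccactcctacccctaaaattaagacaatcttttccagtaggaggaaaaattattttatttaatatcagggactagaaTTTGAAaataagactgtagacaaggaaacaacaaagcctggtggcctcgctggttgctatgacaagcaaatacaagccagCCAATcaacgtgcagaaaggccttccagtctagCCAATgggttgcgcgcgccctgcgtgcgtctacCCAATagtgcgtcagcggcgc
Mcm6, chr1:128359706-128359955, minus strand: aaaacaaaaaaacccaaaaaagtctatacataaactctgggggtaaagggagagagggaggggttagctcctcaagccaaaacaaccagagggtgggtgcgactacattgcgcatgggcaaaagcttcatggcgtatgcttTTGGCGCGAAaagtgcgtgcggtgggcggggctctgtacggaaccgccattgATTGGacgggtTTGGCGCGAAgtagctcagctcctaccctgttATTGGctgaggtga
Pcna, chr2:132253181-132253430, minus strand: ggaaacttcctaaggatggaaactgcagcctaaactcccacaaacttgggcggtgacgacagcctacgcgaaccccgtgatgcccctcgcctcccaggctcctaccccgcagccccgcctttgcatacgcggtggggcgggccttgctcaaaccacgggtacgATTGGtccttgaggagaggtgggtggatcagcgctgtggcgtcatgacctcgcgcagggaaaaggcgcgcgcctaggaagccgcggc
Ccne1, chr7:38107491-38107740, minus strand: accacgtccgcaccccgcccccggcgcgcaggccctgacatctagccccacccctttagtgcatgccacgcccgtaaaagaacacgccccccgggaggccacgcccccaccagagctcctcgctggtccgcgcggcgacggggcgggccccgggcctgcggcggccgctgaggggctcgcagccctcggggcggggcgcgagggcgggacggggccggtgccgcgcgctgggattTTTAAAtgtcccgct
Ccnd3, chr17:47504801-47505050, plus strand: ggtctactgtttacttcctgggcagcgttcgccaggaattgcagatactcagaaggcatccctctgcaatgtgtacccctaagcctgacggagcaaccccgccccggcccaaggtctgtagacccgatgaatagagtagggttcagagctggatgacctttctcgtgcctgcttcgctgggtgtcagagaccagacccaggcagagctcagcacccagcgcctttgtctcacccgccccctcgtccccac
Cdk1 held words of all 3 kinds, with CCAAT 3 times. Ccnb2 held CCAAT 3 times at 87, 54 and 21 bases before the start. Mcm6 had 2 stretches of overlapping E2F words, the nearer at 46 bases before the RefSeq start, and no CHR word. The bases after that start of Mcm6 were not found in a transcript, so the distance holds for the RefSeq start only. Pcna had a single CCAAT word, and Ccne1 a single TTTAAA at 15 bases before the start. In the shown window of Ccnd3, which is the first of 2 that RefSeq gives for the gene, none of the words was found, and its second window holds CCAAT once.

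The D-type cyclins, which bind CDK4 and CDK6 in G1, differed in opposite directions. Ccnd1 (chromosome 7, 144929931 to 144939925 in GRCm38) had 11165 cornea reads and 5338 limbus reads, a log2 ratio of -0.97 (95% CI -1.02 to -0.92) or 1.96-fold higher in the cornea. Ccnd2 (chromosome 6, 127125162 to 127152193) had 1676 cornea reads and 2514 limbus reads, a log2 ratio of 0.68 (95% CI 0.59 to 0.77). Ccnd3 (chromosome 17, 47505051 to 47599691) had 621 and 933 reads, a log2 ratio of 0.68 (95% CI 0.54 to 0.83). After the composition adjustment Ccnd1 stood at -0.93 and Ccnd2 at 0.99, while Ccnd3 stood at 0.32 and was no longer called.

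Ccnd1 was the most abundant of the 40 genes per length in both libraries. Its share of the reads of the D-type cyclins was 82.9% (95% Clopper-Pearson CI 82.3 to 83.6) in the cornea and 60.8% (59.7 to 61.8) in the limbus. The ratio of Ccnd1 to Ccnd2 reads was 6.66 in the cornea against 2.12 in the limbus, 3.14 times as high in the cornea. The ratio of Ccnd2 to Ccnd3 was 2.70 in the cornea against 2.69 in the limbus, a log2 difference of 0.002 with an interval from -0.17 to 0.17. These ratios compare genes within a library and are free of the scaling. The like proportion of Ccnd2 and Ccnd3 holds without the composition adjustment, which set them apart at 0.99 and 0.32. The intervals of such ratios of ratios are normal approximations on the log scale and cover counting error only. Per length, Ccnd3 and Ccnd2 stood close together, at 284 and 256 normalised reads per kilobase (cornea) and 456 and 411 (limbus), while Ccnd1 stood at 2888 and 1475.

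The E-type cyclins, which activate CDK2 for the start of replication, were both on the cornea side. Ccne2 (chromosome 4, 11191351 to 11204779) had 257 cornea reads and 84 limbus reads, a log2 ratio of -1.52 (95% CI -1.89 to -1.16) or 2.86-fold higher in the cornea. It had the lowest ratio of the 40 genes. Ccne1 had 304 and 192 reads, with a log2 ratio of -0.57 (95% CI -0.84 to -0.30), which is 1.48-fold and just short of the call. Reads of Ccne1 per read of Ccne2 numbered 1.18 in the cornea against 2.29 in the limbus. After the composition adjustment the log2 ratios of Ccne1 and Ccne2 were -0.72 and -0.70, so this difference in proportion was not seen there. Ints8, which overlaps Ccne2 on the other strand, had a log2 ratio of -1.22, and whether the counting used strand is not given in the sources used here.

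**Figure D2:**
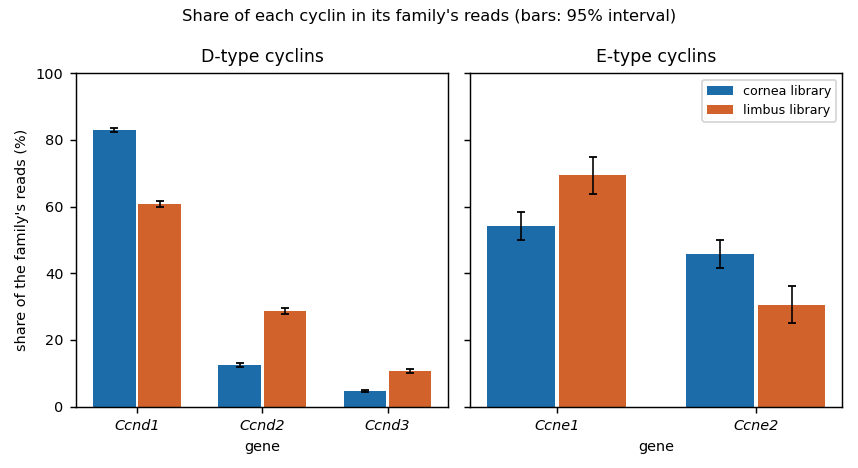
Share of each cyclin gene (horizontal axis) in the reads of its family (vertical axis, percent) in the cornea and limbus libraries, with bars for the exact 95% interval of counting. Ccnd1 takes 82.9% of the D-type reads in the cornea against 60.8% in the limbus, and Ccne2 takes 45.8% of the E-type reads in the cornea against 30.4% in the limbus.

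The transcription factors of the set all lay on the limbus side, except that E2f1 turned to -0.23 after the composition adjustment. Mybl2, which encodes B-MYB (chromosome 2, 163054687 to 163084688), had 137 cornea reads and 248 limbus reads, a log2 ratio of 0.95 (95% CI 0.65 to 1.26) or 1.93-fold. Foxm1, the forkhead factor of the G2 wave, had 573 and 598 reads, with a log2 ratio of 0.16 (95% CI -0.01 to 0.33). E2f1, an activator of S phase genes, had 180 and 181 reads, with a log2 ratio of 0.10 (95% CI -0.20 to 0.41). Mybl2 stood at 0.69 and Foxm1 at 0.00 after the adjustment. The intervals of Foxm1 and E2f1 include no difference with the size factors and exclude it with scaling to total reads, where Foxm1 stood at 0.36 (95% CI 0.20 to 0.53) and E2f1 at 0.31 (95% CI 0.004 to 0.62).

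Among the genes that license origins and run the replication fork, 8 of 9 lay on the cornea side with a median of -0.40, and 1 met the call. Of genes with a mean of at least 50, 56.7% lay on the cornea side and 22.1% met the call there. Mcm2 to Mcm7 encode the 6 subunits of the replicative helicase. Mcm4 had 1114 cornea reads and 677 limbus reads, a log2 ratio of -0.62 (95% CI -0.76 to -0.48). Mcm6, the subunit gene with the most reads, had 1836 and 1288 and a ratio of -0.42 (95% CI -0.52 to -0.31). Mcm2 had 991 and 705 reads with -0.40 (95% CI -0.54 to -0.25), and Mcm5 had 1132 and 828 with -0.36 (95% CI -0.49 to -0.22).

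The ratios of the helicase genes differed from each other, and the composition adjustment changed which of them stood lowest. Mcm3 had 883 and 802 reads with a log2 ratio of -0.04 (95% CI -0.18 to 0.10). Mcm7 had 1076 and 993 with -0.02 (95% CI -0.15 to 0.11), so the intervals of both lay above that of Mcm4. With scaling to total reads the intervals of Mcm3 and Mcm7 lay on the limbus side, from 0.02 to 0.30 and from 0.06 to 0.31. After the adjustment Mcm4, Mcm3 and Mcm7 stood at -0.21, -0.09 and -0.07, and Mcm4 was no longer called. Mcm2, Mcm5 and Mcm6 then stood at -0.47, -0.31 and -0.16. The adjusted interval of Mcm2, from -0.61 to -0.33, lay below those of Mcm3, Mcm6 and Mcm7. Levels per length of the 6 subunit genes stayed within 1.45-fold of each other in the cornea, from Mcm3 to Mcm6, and within 1.78-fold in the limbus, from Mcm4 to Mcm7. Mcm7 hosts 3 microRNA genes and overlaps Cops6 and Ap4m1 on the other strand, whose log2 ratios were -0.02 and 0.10.

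Pcna, the sliding clamp of the DNA polymerases, had 2680 cornea reads and 1812 limbus reads, a log2 ratio of -0.47 (95% CI -0.56 to -0.38). It ranked next to Ccnd1 per length in both libraries. The loading factors Cdc6 and Cdt1 lay on opposite sides. Cdc6 had 148 and 93 reads and a ratio of -0.57 (95% CI -0.96 to -0.19), while Cdt1 had 211 and 225 and a ratio of 0.19 (95% CI -0.09 to 0.47, or 0.12 to 0.67 with scaling to total reads). Under that scaling the interval of Cdc6 included no difference, at -0.37 (95% CI -0.76 to 0.015). Reads of Cdc6 per read of Cdt1 were 1.70 times as many in the cornea as in the limbus. After the composition adjustment both lay on the cornea side, Cdc6 at -0.39 and Cdt1 at -0.18. Cdc6 had the lowest level per length of the 40 genes in both libraries.

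The enzymes of deoxynucleotide supply all lay on the cornea side, except under the alternatives given after their values. Rrm1, the large subunit of ribonucleotide reductase, had 2692 cornea reads and 1782 limbus reads, a log2 ratio of -0.50 (95% CI -0.59 to -0.41). Rrm2, the S phase subunit, had 1199 and 693 reads and a ratio of -0.70 (95% CI -0.83 to -0.56), or 1.62-fold. Tyms, the thymidylate synthase, had 684 and 576 reads, and its ratio of -0.15 had an interval from -0.31 to 0.01. The composition adjustment turned Rrm1 to 0.15 and Tyms to 0.11 and ended the call of Rrm2, at -0.35. Scaling to total reads turned Tyms to 0.05.

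**Figure D3:**
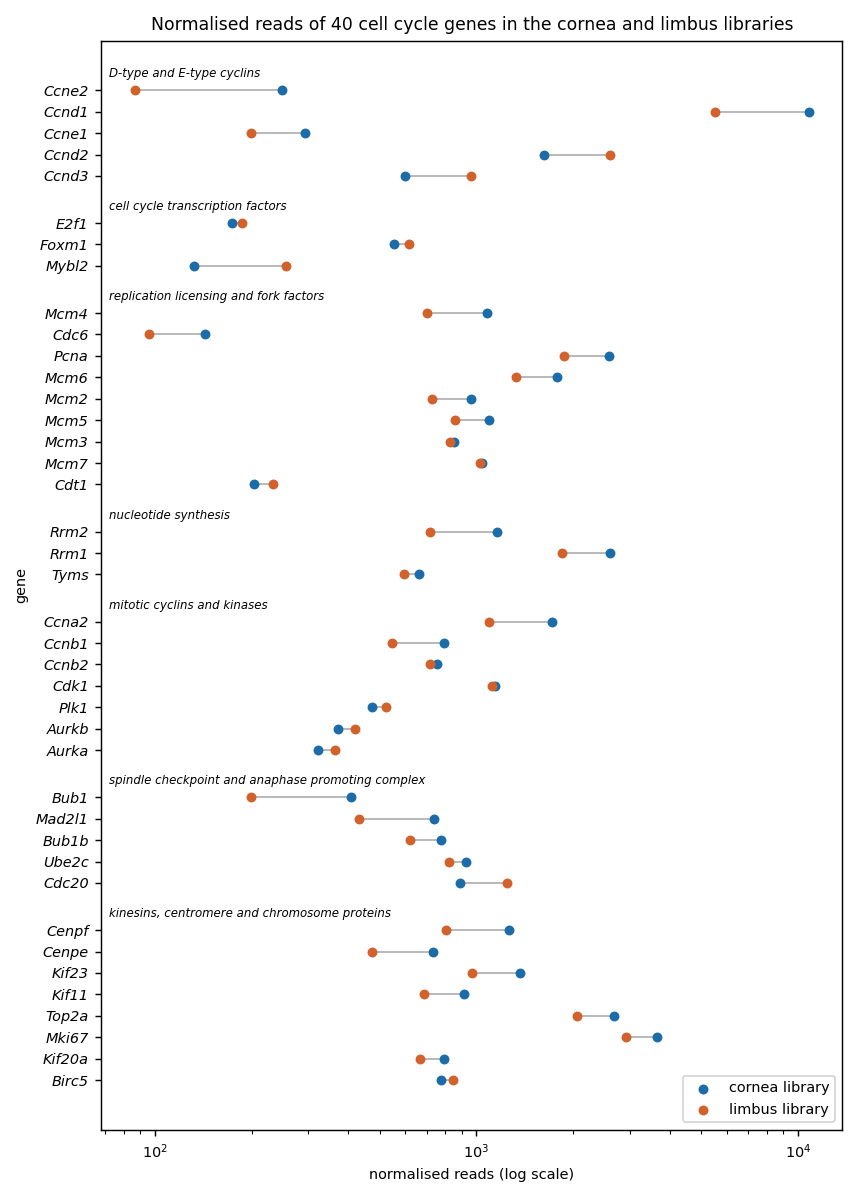
Normalised reads (horizontal axis, log scale) of each of the 40 genes (vertical axis) in the cornea library and in the limbus library, joined by a line and ordered by role. Reads are not divided by gene length, so levels compare tissues for a gene and not genes with each other. Ccnd1 has the most reads in both libraries, and the limbus point lies left of the cornea point for 29 genes.

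The mitotic cyclins and kinases had a median of -0.03, which the composition adjustment moved to 0.02. Cdk1, the kinase of mitotic entry, had 1178 cornea reads and 1081 limbus reads, a log2 ratio of -0.03 (95% CI -0.15 to 0.09, or 0.06 to 0.30 with scaling to total reads). Ccna2, the gene of a cyclin of S and G2 phase, had 1775 and 1056 reads and a ratio of -0.65 (95% CI -0.76 to -0.54), or 1.57-fold. Reads of Ccna2 per read of Cdk1 numbered 1.51 in the cornea against 0.977 in the limbus, a log2 difference of 0.63 (interval 0.46 to 0.79). After the composition adjustment Ccna2 stood at -0.24, no longer called, and Cdk1 at 0.22. Exosc9, which overlaps Ccna2 on the other strand, had a log2 ratio of -0.38.

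The B-type cyclins, which carry Cdk1 through mitosis, differed from each other before the composition adjustment. Ccnb1 had 822 and 530 reads with a log2 ratio of -0.54 (95% CI -0.70 to -0.38). Ccnb2 had 782 and 695 reads with -0.07 (95% CI -0.22 to 0.07). After the adjustment the 2 genes stood at 0.00 and 0.05. The 3 other mitotic kinases lay on the limbus side with intervals that include no difference with the size factors. With scaling to total reads, Plk1, Aurka and Aurkb stood at 0.35, 0.38 and 0.38, and the lower bounds of 0.17, 0.16 and 0.17 lay above 0. Plk1, which acts in spindle assembly and mitotic exit, had 490 and 508 reads and a ratio of 0.15, which turned to -0.05 after the adjustment. Aurka, the spindle pole kinase, had 332 and 351 with 0.18, and Aurkb, the kinase of the chromosomal passenger complex, had 384 and 405 with 0.17. Aurka and Aurkb stood in the same proportion in both libraries within counting error, at 0.865 and 0.867 reads of Aurka per read of Aurkb.

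The spindle checkpoint keeps sister chromatids together until every chromosome is attached, and its 3 genes here lay on the cornea side while Cdc20, which it inhibits, lay on the limbus side. This contrast was smaller after the composition adjustment, which put Bub1 at -0.22 and Mad2l1 at 0.14, ending both calls and turning Mad2l1, and left Bub1b at -0.27 and Cdc20 at 0.28. Bub1, the checkpoint kinase (chromosome 2, 127801122 to 127831865), had 421 cornea reads and 192 limbus reads, a log2 ratio of -1.04 (95% CI -1.29 to -0.79) or 2.05-fold higher in the cornea. Mad2l1, which encodes the inhibitor MAD2, had 762 and 416 reads and a ratio of -0.78 (95% CI -0.95 to -0.60). Bub1b, which encodes BUBR1, had 801 and 602 and a ratio of -0.32 (95% CI -0.47 to -0.16, or -0.27 to 0.04 with scaling to total reads).

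Cdc20, the activator of the anaphase promoting complex, had 918 cornea reads and 1205 limbus reads. Its log2 ratio was 0.49 (95% CI 0.36 to 0.61), or 1.40-fold higher in the limbus, which is below the call. Elovl1, which overlaps Cdc20 on the other strand, had 2691 and 3134 reads and a ratio of 0.32. Ube2c, the ubiquitin-conjugating enzyme of the same complex, had 957 and 794 reads and a ratio of -0.17 (95% CI -0.31 to -0.04, or -0.11 to 0.17 with scaling to total reads). Tnnc2, a skeletal muscle troponin gene that overlaps Ube2c on the other strand, had 5 cornea reads and 1448 limbus reads. How far the reads of such partners enter the values of Cdc20 and Ube2c was not tested.

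Of the kinesins, centromere and chromosome proteins, 7 of 8 lay on the cornea side with a median of -0.40, all 7 beyond counting error with the size factors. The background with a mean of at least 50 was 56.7% on the cornea side, 45.5% beyond counting error there and 22.1% called there. Cenpf, a kinetochore protein, had 1306 cornea reads and 776 limbus reads, a log2 ratio of -0.66 (95% CI -0.79 to -0.53). Cenpe, the kinetochore motor, had 760 and 459 and a ratio of -0.63 (95% CI -0.80 to -0.46). These were the only 2 of the 8 genes past the call, and scaling to total reads ended both calls. After the composition adjustment Cenpf and Cenpe stood at -0.05 and -0.02, the median of the 8 genes was 0.09, and Kif11, Kif20a, Top2a and Mki67 turned to 0.24, 0.01, 0.22 and 0.17. Kif23 stood at -0.08, and the intervals of Kif20a, Kif23, Cenpe and Cenpf then included no difference. Those of Kif11, Top2a and Mki67 then lay on the limbus side. With scaling to total reads the interval of Kif20a included no difference, at -0.05 (95% CI -0.20 to 0.10). Kif11, the motor that separates the spindle poles, had 945 and 665 with -0.41, Kif23 of the central spindle had 1416 and 939 with -0.50, and Kif20a, a motor of cytokinesis, had 821 and 645 with -0.25.

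Mki67, the gene of the proliferation marker Ki-67, had 3767 cornea reads and 2819 limbus reads, a log2 ratio of -0.32 (95% CI -0.39 to -0.25) or 1.25-fold higher in the cornea. Top2a, the topoisomerase that untangles sister chromatids, had 2764 and 1982 reads and a ratio of -0.38 (95% CI -0.47 to -0.30). Reads of Mki67 per read of Top2a numbered 1.36 in the cornea against 1.42 in the limbus, with an interval of the log2 difference from -0.17 to 0.05. Birc5, the gene of survivin, was the one gene of the group on the limbus side. It had 800 and 816 reads, and its ratio of 0.12 had an interval from -0.02 to 0.27, which became 0.19 to 0.47 with scaling to total reads.

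Genes of the same pathways outside the set were taken from lists of known members. Of 40 other DNA replication genes, 34 lay on the cornea side, 13 were at least 1.5-fold higher there and 0 in the limbus, with a median log2 ratio of -0.37. The called genes with the most reads were Rpa1, a subunit of the single-strand binding protein, at -0.59 and Orc2 of the origin recognition complex at -0.94. Scaling to total reads left 9 called in the cornea and 1 in the limbus with a median of -0.17, and ended the call of Rpa1, at -0.38. The composition adjustment left 4 and 0 with a median of -0.14 and ended the calls of Rpa1 and Orc2. After that adjustment 32 of the 40 genes lay on the cornea side, and 26 did with scaling to total reads. Of 45 other mitosis genes, 36 lay on the cornea side, with 13 called in the cornea against 0 in the limbus and a median of -0.31. Smc4 of condensin had a log2 ratio of -1.12 and Hmmr, a spindle protein, one of -0.66. The composition adjustment turned this list, with 15 of 43 genes on the cornea side, 0 called in either tissue and a median of 0.06, Smc4 at -0.22 and Hmmr at 0.24. Scaling to total reads gave 7 called in the cornea and 1 in the limbus with a median of -0.10, and ended the call of Hmmr, at -0.45. Under that scaling 28 of the 45 mitosis genes lay on the cornea side. As given above, the background with the size factors is 22.1% of genes called in the cornea against 17.4% in the limbus, with 56.7% on the cornea side. With scaling to total reads it is 14.2% against 23%, with 43.4% on the cornea side. After the composition adjustment it is 9.06% against 17.8%, with 49.9% on the cornea side.

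The inhibitors of cyclin-dependent kinases and the pocket proteins went both ways. Their 10 genes had a median of -0.09, with 3 called in the cornea against 1 in the limbus, where the background of calls for this list and the next ones is again 22.1% and 17.4%. With scaling to total reads that background is 14.2% and 23%, and after the composition adjustment 9.06% and 17.8%. Cdkn1b, which encodes the inhibitor p27, had 3155 cornea reads and 1105 limbus reads, a log2 ratio of -1.42 (95% CI -1.52 to -1.32). Rbl1, which encodes the pocket protein p107, had 1318 and 609 reads and a ratio of -1.02. The third was Rb1, the retinoblastoma gene, with 1251 and 300 reads and a ratio of -1.96, named here after its value was seen. Cdkn1c, which encodes p57, had 118 and 572 reads and was the gene called in the limbus, at 2.37 (95% CI 2.08 to 2.67). Scaling to total reads kept all 4 calls and turned the median to 0.11, and the composition adjustment ended the call of Rbl1, at -0.37, and left Rb1 at -1.06 and Cdkn1b at -0.77.

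Of 13 genes for G1 kinases and other E2F factors, E2f7 at -0.75 and Cdk6 at -0.61 were called in the cornea against 0 in the limbus, with a median of -0.13. Scaling to total reads ended both calls, turned the median to 0.075 and added a call in the limbus, Cdc25a at 0.70, named here after its value was seen, and the composition adjustment ended that of Cdk6, at -0.12. Of 8 genes associated with quiescence, 4 were called in the cornea against 1 in the limbus, with a median of -0.47. Klf4, a factor of epithelial differentiation, had a log2 ratio of -1.27 and Pdcd4, an inhibitor of translation, one of -0.75. Txnip, an inhibitor of thioredoxin, had 13734 cornea reads and 20928 limbus reads, a ratio of 0.70. Klf4 and Txnip kept their calls under both alternatives, and Pdcd4 lost its call under both, at -0.54 and -0.21. In the whole list 3 genes were called in the cornea against 1 in the limbus with scaling to total reads, and 2 against 2 after the composition adjustment.

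**Figure D4:**
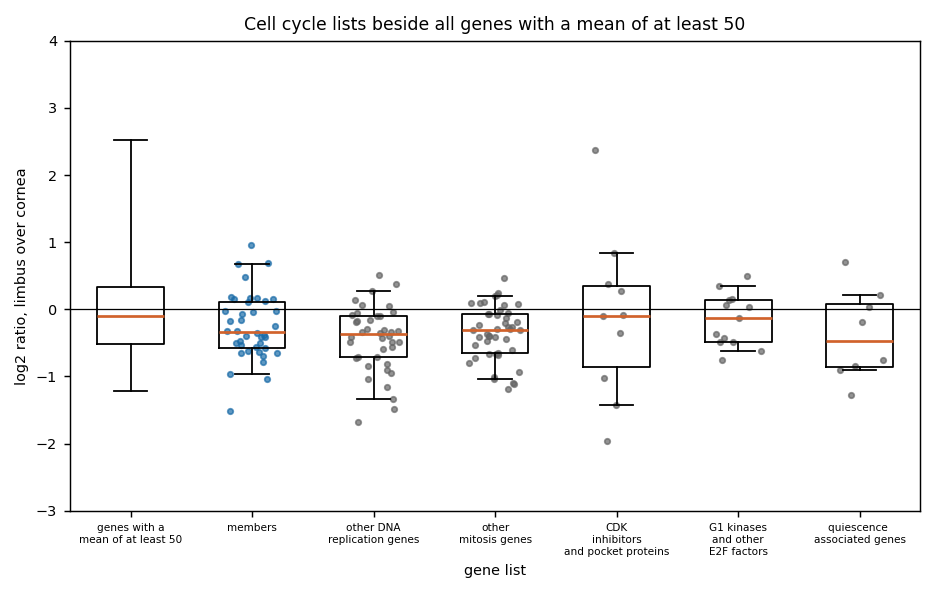
Log2 ratio of limbus over cornea (vertical axis) of the 40 genes (members) and of the other cell cycle lists, beside genes with a mean of at least 50. Points are genes, boxes span the quartiles with the median in orange, and whiskers reach the 5th and 95th percentiles. The medians of the set and of the other replication and mitosis genes, -0.34, -0.37 and -0.31, lie below the -0.10 of the background, although the composition adjustment turns that of the mitosis genes to 0.06.

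The ratios moved with the base composition of the transcripts, in the set as in the transcriptome. Across the 40 genes the log2 ratio and the GC content of the longest coding transcript had a Spearman correlation of 0.73. Across the 11041 genes with a known GC content whose mean was 50 or more, it was 0.57. Both are correlations across genes of the same 2 libraries, and genes are not independent replicates. The 29 genes on the cornea side had a median GC content of 46.6% and the 11 on the limbus side one of 55.6%. Split into 5 equal bins of GC content set on those 11041 genes, the cell cycle genes had medians of -0.63 (9 genes), -0.37 (12), -0.34 (6), -0.02 (9) and 0.44 (4) from low to high GC, and the 11041 genes had -0.71, -0.33, -0.10, 0.13 and 0.32.

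**Figure D5:**
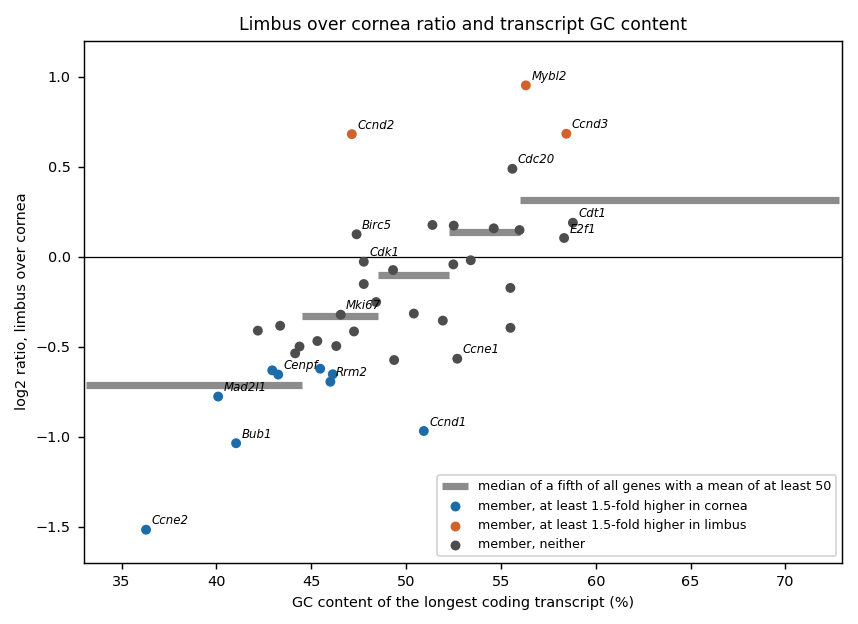
Log2 ratio of limbus over cornea (vertical axis) against the GC content of the longest coding transcript (horizontal axis, percent) for the 40 genes, with some named. Grey bars are medians of the 11041 genes of known GC content with a mean of at least 50 in 5 equal bins of GC content, each bar as wide as its bin. Most of the 40 genes lie near the bar of their bin, while Ccnd1 lies below and Ccnd2 above it.

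With the composition adjustment, in all, the median of the 40 genes was -0.05, with 23 (57.5%) on the cornea side and 17 on the limbus side. On the cornea side were then 43.4% of tested genes of known GC content and 49.9% of those with a mean of at least 50. At least 1.5-fold higher in the cornea were then Ccnd1, Ccne1 and Ccne2, and in the limbus Ccnd2 and Mybl2. These 3 and 2 of the 40 genes are 7.5% and 5%, where the same calls were made for 8.11% and 23.3% of the 14003 tested genes of known GC content and for 9.06% and 17.8% of the 11041, so the share called in the cornea lay near the background. Of the 40 genes 12 changed sign, none of them a cyclin of the D or E type. The part of GC content in the unadjusted ratios beyond these values was not tested.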

How the data were processed

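Limbal rims and corneal buttons of wild type C57BL/6J mice were pooled by tissue, and total RNA libraries made with the QIAseq Stranded Total RNA kit were sequenced on a NextSeq 500. The authors trimmed adaptors, mapped reads in CLC Genomics Workbench to the GRCm38 (mm10) build, and used trimmed means of M-values for normalisation. The authors deposited 1 table with, for each gene, the mean normalised signal over libraries. It also gives the authors' own comparison of the tissues, as log2 fold changes that the authors deposited with standard errors and p-values. Of 40904 rows, 17484 name no gene and stayed out of totals, and 5978 of the 23420 named genes have a mean of 0. Rows were identified by gene name alone, since nearly all of the table's accessions found in RefSeq name other genes. Of those given for members, 35 were found in RefSeq, and 0 belonged to the member.

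Every mean of the other 17442 genes equals the average over 2 libraries of whole reads divided by the library's size factor, within 0.02 of a step (largest distance 0.0101). These size factors differed from a trimmed mean of M-values worked out here on named genes, which shifted log2 ratios by 0.017. The mean alone allowed 1 pair of read numbers for 6143 genes. For 11281 the comparison columns picked the pair, 15 were placed by the dispersion of similar genes and 3 with a difference near 0 by equal levels. The means of the 40 members allowed 2 to 155 pairs each, and for all 40 the comparison columns left 1 pair. These columns served no other purpose, and their values are not printed. On simulated data for this comparison, all 17040 of 17040 genes had their reads found and 200 of 200 changed genes their direction. The simulated fold changes and standard errors came from the same equations that then recovered the reads. So this checks the solving steps, and not whether the deposited columns follow those equations. The reads were not treated as a count table, and no count model was run.

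Where a library had at most 3 reads it was taken at 3, and genes with more than that in at least 1 library were tested (15572). Transcript length and GC content came from GENCODE M21 and were known for 89.9% of tested genes, adjusted in 10 bins of GC by 5 of length. Another gene overlaps 18 of the 40 members, on the other strand in 14 cases. The 40 genes, the lists and the role groups were chosen with earlier results of these data known. All 40 were named, and of each other list up to 2 called genes per direction with the most reads. The value of 1 listed marker is not reported here. Markers of keratocytes had a median of -0.01 and of general epithelium of -0.40. Alternatives were scaling to total reads or by a trimmed mean of M-values, a pseudocount of 1, a mean of at least 50, genes whose mean alone gives the reads, calls at 2-fold or by the interval alone, and the set without D-type cyclins. Python 3.11.15, numpy 2.4.6, scipy 1.17.1 and pandas 2.3.3 were used.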

Additional observations from a re-analysis of the deposited data

How the results depend on the processing

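A trimmed mean of M-values and a pseudocount of 1 left all 40 single ratios within their counting intervals. A mean of at least 50 leaves out none of the 40 genes, so it could not change their ratios. Scaling to total reads shifted all 40 ratios alike, and whether a ratio left its counting interval, as 32 did, depended on the interval's width. It gave 3 genes higher in the cornea, a median of -0.13 for the 40 genes and -0.10 for other mitosis genes. The medians were then 0.11 for kinase inhibitors and pocket proteins, 0.075 for G1 kinases and E2F factors and -0.26 for quiescence genes. At 2-fold, 2 genes were higher in the cornea and 0 were higher in the limbus, with no share of all genes worked out at that fold. With the interval alone, 24 were higher in the cornea, or 13 after the composition adjustment. Without the D-type cyclins 1 gene was higher in the limbus. Adjustment for GC content and length, added after the data were seen, gave 3 genes in the cornea and a median of -0.048 for the 40 genes. The medians were then -0.14 for other replication genes, 0.061 for other mitosis genes and -0.10 for quiescence genes. This adjustment turned Mad2l1 to 0.14, took 26 other ratios out of their counting intervals and changed the sign of 12 of the 40. Genes whose mean alone gives the reads left none of the 40 and 1 gene each for other replication genes, at -1.34, and for kinase inhibitors, at 0.83. Leaving out a replicate could not be run. No paired analysis was possible because the table holds no value per numbered sample. Depth limits the genes with few reads, such as Ccne2, Cdc6, Mybl2 and E2f1, to intervals wider than those of Ccnd1 or Mki67.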
